A study of Mus musculus with 48 samples.

Results

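The comparison described here sets the nuclear against the membrane fraction of mouse embryonic stem cells over the whole time course of a transcription block. It takes in every nuclear and every membrane library, 12 of each, so 24 of the 48 libraries of the series, and was chosen by the fraction label alone. All libraries come from E14TG2a, a line of mouse embryonic stem cells kept on gelatin in 2i + LIF medium, which holds inhibitors of MEK and GSK3 together with the cytokine LIF. All of them carry 1 µM flavopiridol, a drug that blocks the kinase releasing paused RNA polymerase II, so that no untreated library enters a comparison. Each fraction was sampled at 30, 60, 120 and 240 min with 3 replicates, which were passaged independently of each other. The titles give the last time as 240 min and the protocol text as 180 min, and 240 min was used.

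The fractions are defined by detergent. Digitonin opened the plasma membrane and released the cytosol, a stronger lysis buffer with NP-40 then released the membrane fraction, and the nuclei were spun through a sucrose cushion. Polyadenylated RNA was sequenced. Each deposited value is a gene's level divided by that of the 0 min sample of its own fraction. The paper lists a harvest at 0 min for its 3 replicates. Whether each replicate was divided by its own 0 min sample is not given in the sources used here. An error in a shared one would not show in the spread between replicates. A ratio of 1 therefore stands for no change since the block, and the ratios do not say how much of a transcript sits in either fraction. Fewer cells and less RNA per cell cannot be told apart in such bulk samples. A library listed between 15453 and 19501 genes, and 11643 genes were listed in all 24 libraries and tested. Because ratios hold no level, the cell type could be checked only by listing. Of 20 pluripotency factors all were listed in some library and 17 in all 24, and of 20 markers of other cell types 17 were listed in some library and 6 in all.

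As background, an mRNA is made and processed in the nucleus, leaves through nuclear pores and is translated in the cytosol or, when it encodes a secreted or membrane protein, on ribosomes bound to the endoplasmic reticulum (ER). Such an mRNA usually carries near its start a stretch of codons for hydrophobic residues, which the signal recognition particle binds as the nascent chain leaves the ribosome. As a transcription block takes hold, the supply of new transcripts in the nucleus declines, whereas the membrane fraction still receives those exported from the nucleus.

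The coding starts of 3 named genes are printed here to show the sequence feature by which the genes are grouped further on. Capitals mark the first window of 19 codons whose residues reach a mean Kyte-Doolittle hydropathy of at least 1.6, and each line runs from the start codon to the end of that window. The genes are Izumo4 (chr10:80702184-80705373, plus strand), Mmp23 (chr4:155650655-155653384, minus strand) and B3galt6 (chr4:155989466-155992649, minus strand), on GRCm38 with the GENCODE annotation. Izumo4 and Mmp23 had a lower slope in the nucleus and B3galt6 a higher one.
Izumo4: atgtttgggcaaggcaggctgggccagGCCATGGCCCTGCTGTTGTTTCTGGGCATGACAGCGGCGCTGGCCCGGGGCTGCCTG
Mmp23: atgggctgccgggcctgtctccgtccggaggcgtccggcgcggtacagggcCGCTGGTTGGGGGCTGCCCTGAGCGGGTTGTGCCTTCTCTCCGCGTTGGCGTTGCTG
B3galt6: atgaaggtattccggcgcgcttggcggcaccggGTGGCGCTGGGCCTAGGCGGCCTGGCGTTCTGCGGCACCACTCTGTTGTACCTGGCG

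The first question was how the fractions as a whole moved apart. The median log2 ratio over the 11643 genes was -0.36 ± 0.33 (SD, n = 3) for nuclear and -0.11 ± 0.01 for membrane libraries at 30 min. At 60 min it was -0.65 ± 0.12 against -0.39 ± 0.05, at 120 min -0.96 ± 0.08 against -0.71 ± 0.09, and at 240 min -1.47 ± 0.10 against -1.08 ± 0.12. The nuclear libraries lay below the membrane libraries at 60, 120 and 240 min without overlap, and at 30 min they overlapped. The wide spread at 30 min came from the nuclear library of replicate 1, and results that rest on it are given with and without it. The gap between fractions was -0.25 ± 0.34 at 30 min and -0.26 ± 0.13 at 60 min, against -0.25 ± 0.12 at 120 min and -0.39 ± 0.21 at 240 min. Without the nuclear 30 min library of replicate 1 the gap at 30 min was -0.06 ± 0.15 (SD, n = 2).

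**Figure D1:**
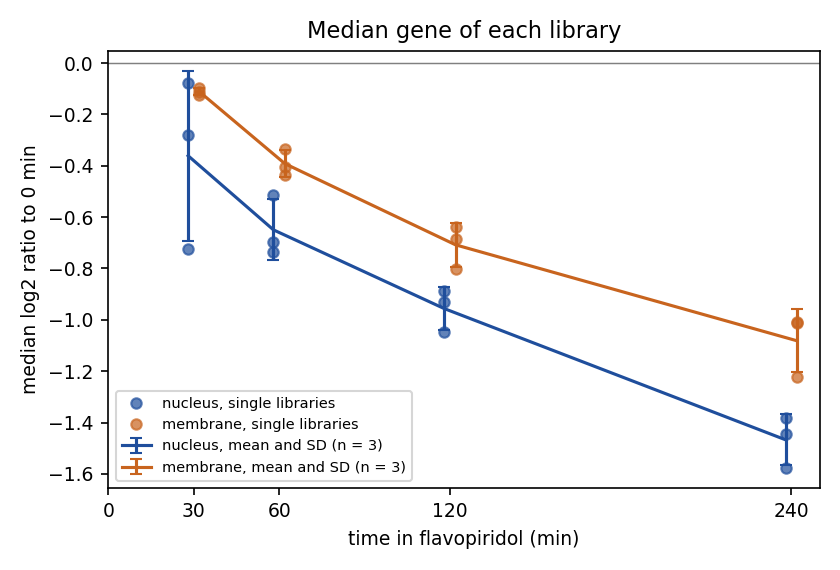
Median log2 ratio to 0 min of the 11643 genes (vertical axis) against time in flavopiridol in min (horizontal axis). Points are the 24 libraries and lines join the means of 3 replicates with SD bars. The nuclear points lie under the membrane points from 60 min on, and 1 nuclear library stands apart at 30 min.

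The rate of change after 30 min was compared by the slope of a straight line through the log2 ratios, in log2 units per hour, fitted with limma across both fractions. The median slope was -0.29 for the nucleus and -0.26 for the membrane fraction. In the nucleus 7640 genes fell and 428 rose, in the membrane fraction 7268 fell and 374 rose, and 6279 fell in both. The slope difference, nucleus minus membrane, was called lower in the nucleus for 717 genes, 6.16% of those tested, and higher for 255, 2.19%. Its median over all genes was -0.003 ± 0.12 (SD over 3 replicate series). Without the nuclear 30 min library of replicate 1 the counts were 924 and 212. Leaving out replicates lowered them to 582 and 37 without replicate 1, 120 and 41 without replicate 2, and 70 and 16 without replicate 3. With centring, in which the median gene of every library is set to 0 on the log2 scale, 864 genes were lower and 1142 higher, so the share of lower calls went from 73.8% to 43.1%, and the sign of a small slope difference rests on the scaling.

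**Figure D2:**
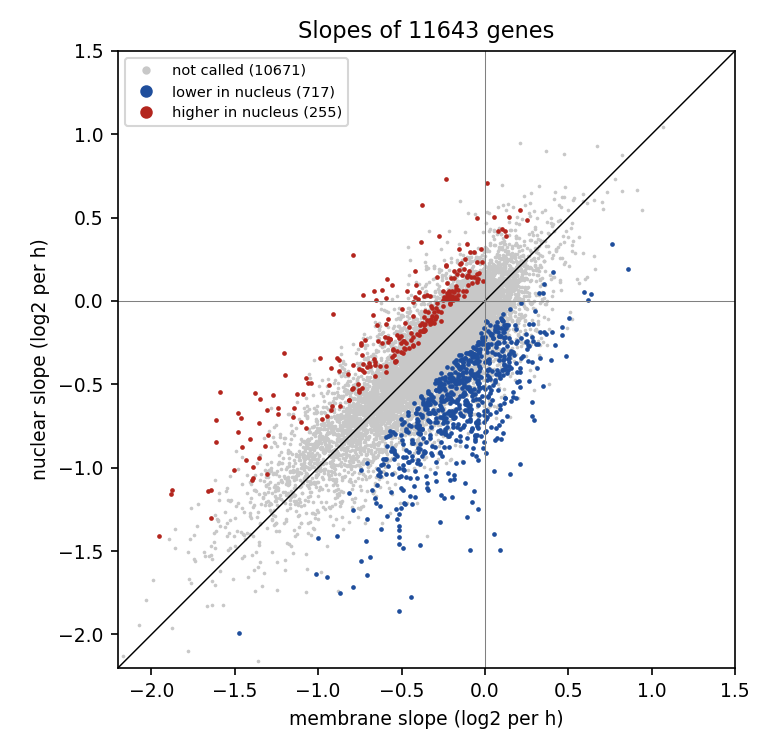
Nuclear slope (vertical axis) against membrane slope (horizontal axis), both in log2 ratio per hour, for 11643 genes, with the line of equal slopes. Blue points (717) have a lower and red points (255) a higher nuclear slope by the test of the difference, and grey points were not called.

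Differences in the ratio itself at a single time were far more frequent than differences in slope. At 60 min 3523 genes, 30.3%, were lower in the nucleus relative to 0 min and 1697, 14.6%, were higher. At 240 min 4227 genes, 36.3%, were lower and 2142, 18.4%, were higher. Of the genes called at 60 min, 4583 had no called slope difference and 637 had one. The median difference over all genes was -0.24 at 30 min, -0.24 at 60 min, -0.19 at 120 min and -0.26 at 240 min. The value at 30 min rests on the nuclear library of replicate 1, and leaving that one out gave -0.07. All times share the 0 min levels of their fraction, which are not analysed here, so that an error in a 0 min level enters the difference at every time alike and does not enter the slopes. With centring, 2609 genes were lower and 2971 higher at 60 min, and 3006 and 3911 at 240 min, so lower calls made up 46.8% and 43.5% in place of 67.5% and 66.4%. Without replicate 2 there were 2235 lower and 1063 higher genes at 60 min, and without replicate 3 there were 892 higher.

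Among the lowest slope differences were those of genes whose nuclear ratio had dropped to a few percent of the start by 240 min. Their membrane ratio was then near 1 or had fallen much less, and in some it had been well above 1 in between. Slc22a17 (chr14:54906304-54913132), a member of the solute carrier superfamily, had nuclear ratios of 0.430, 0.755 and 0.722 in the 3 replicates at 30 min. At 240 min they were 0.0348, 0.0337 and 0.0222. The membrane ratios were 1.43, 0.736 and 1.48 at 30 min, 2.24, 2.04 and 1.715 at 60 min and 1.21, 1.41 and 1.304 at 240 min. The groups just overlapped at 30 min and lay far apart at 240 min. The slope difference of Slc22a17 was -1.21 ± 0.11 log2 per hour (SE, limma adjusted p = 9.82e-07).

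Izumo4, a secreted member of the family named after the sperm protein Izumo1, had the lowest slope difference by this rule, -1.45 ± 0.25 (adjusted p = 8.70e-04). Its nuclear ratios at 240 min were 0.0339, 0.0243 and 0.0149, and its membrane ratios 0.538, 1.45 and 1.62. The membrane ratios of Izumo4 varied widely before, with 0.5675, 0.279 and 1.37 at 30 min and 1.03, 3.41 and 3.19 at 60 min. Epb41l3, which links membrane proteins to the actin skeleton, followed with -1.41 ± 0.17 (adjusted p = 5.57e-05). Its nuclear ratios went from 0.456, 1.22 and 0.894 at 30 min to 0.0299, 0.0134 and 0.0262 at 240 min, whereas its membrane ratios at 240 min were 1.07, 0.651 and 0.486. In both genes every nuclear library at 240 min lay under every membrane library. Mif4gd, whose product takes part in the translation of histone mRNA, differed from these in that it fell in both fractions, with slopes of -1.86 ± 0.13 (nucleus) and -0.52 ± 0.13 (membrane).

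Glt8d1, a glycosyltransferase family protein, had a slope difference of -1.13 ± 0.16, and Mmp23, a membrane-anchored matrix metalloprotease, one of -1.05 ± 0.17. Dmac2, a factor for the assembly of respiratory complex I, had -0.99 ± 0.26 and also fell in the membrane fraction, with a slope of -0.49 ± 0.18 there. Gja6, a gap junction connexin, reached its difference of -1.07 ± 0.21 by another course. Its nuclear ratios were above 1 at 30 min, with 2.40, 4.95 and 4.06, and fell to 0.567, 0.102 and 0.298 at 240 min, while its membrane ratios at 240 min were 0.657, 0.886 and 2.23. Of these 8 genes with the lowest slope differences, Gja6 was the one with a higher ratio in the nucleus at 30 min in every library.

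**Figure D3:**
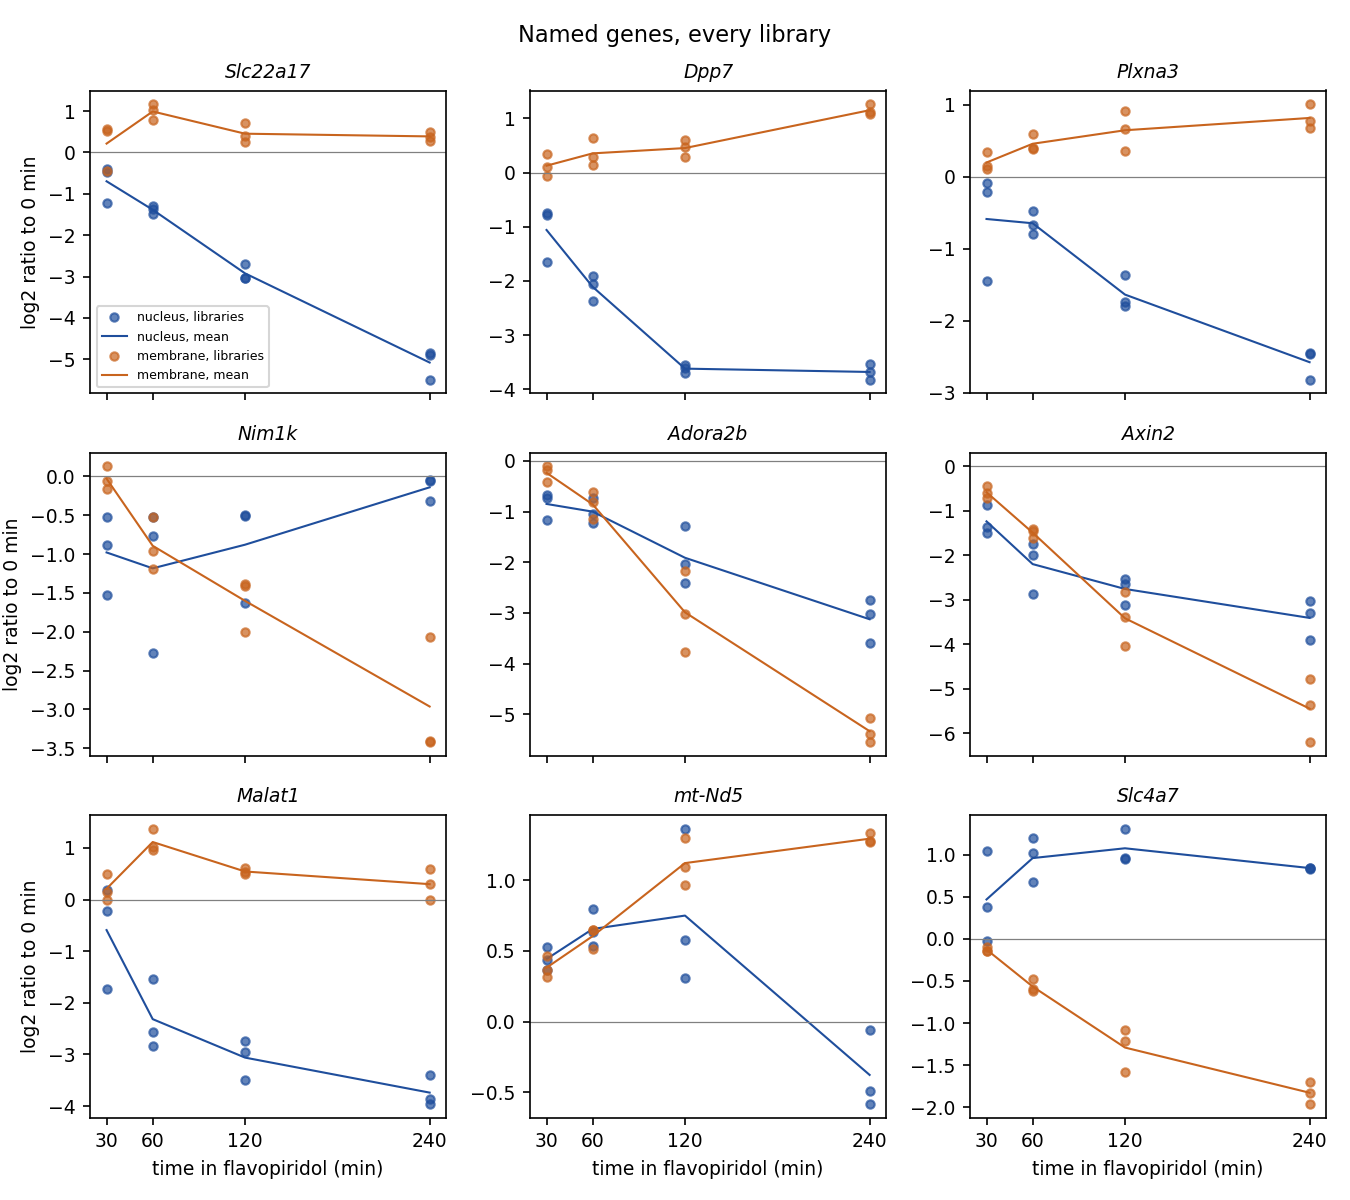
Log2 ratio to 0 min (vertical axis) against time in min (horizontal axis) for 9 genes, with every library as a point and the mean of 3 replicates as a line, nucleus in blue and membrane in orange. Slc22a17, Dpp7, Plxna3 and Malat1 part downward in the nucleus, Slc4a7 parts upward, and in Nim1k, Adora2b and Axin2 the lines cross between 60 and 240 min.

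The genes named next stood at the other end. Their mean log2 ratio was lower in the nucleus at 30 min and higher there at 240 min, so that their curves crossed. By limma their differences at 30 min were not called and those at 240 min were. Axin2 (chr11:108920349-108950783), a target gene of Wnt signalling that encodes a scaffold for β-catenin degradation, showed this crossing while falling in both fractions. Its nuclear ratios were 0.390, 0.356 and 0.552 at 30 min and 0.124, 0.102 and 0.0667 at 240 min. Its membrane ratios were 0.613, 0.660 and 0.741 at 30 min and 0.0363, 0.0245 and 0.0137 at 240 min. The slope difference of Axin2 was 0.83 ± 0.16 (adjusted p = 0.00233). Every nuclear library lay under the membrane libraries at 30 min and over them at 240 min.

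The adenosine receptor gene Adora2b went the same way, with a slope difference of 0.81 ± 0.13 (adjusted p = 6.35e-04). Its nuclear ratios were 0.630, 0.448 and 0.604 at 30 min and 0.123, 0.0826 and 0.148 at 240 min. Its membrane ratios were 0.926, 0.878 and 0.753 at 30 min and 0.0297, 0.0214 and 0.0240 at 240 min. The nuclear libraries of Adora2b were the lower ones at 30 min, overlapped with the membrane libraries at 60 min and were the higher ones at 240 min.

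Further genes with high slope differences were Nim1k, a protein kinase, with 1.06 ± 0.15, B3galt6, a galactosyltransferase that builds the linker of proteoglycans, with 0.90 ± 0.20, Shisa8 with 0.83 ± 0.24, and Tmem185b with 0.76 ± 0.16. Nim1k rose in the nucleus by 0.27 ± 0.11 per hour from ratios of 0.346, 0.544 and 0.694 at 30 min to 0.958, 0.806 and 0.967 at 240 min. It fell in the membrane fraction, where its ratios were 0.963, 1.09 and 0.895 at 30 min and 0.0935, 0.0946 and 0.238 at 240 min. B3galt6 had nuclear ratios of 0.202, 0.209 and 0.265 and membrane ratios of 0.0340, 0.0343 and 0.0417 at 240 min, with no overlap. Tmem51os1, with 1.04 ± 0.24, is annotated antisense to Tmem51. The libraries were made with a stranded kit, but the sources used here give no strand setting for the counting of this series. Reads of Tmem51os1 may therefore be shared with Tmem51.

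Opposite directions were rare. A fall in the nucleus with a rise in the membrane fraction was called for 40 genes, 0.344%, and the reverse for 13, 0.112%. Without replicate 3 these were 5 and 3, without replicate 2 they were 11 and 6, and without replicate 1 they were 26 and 4. With centring they were 121 and 56, since a rise is then one relative to the median gene.

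Dpp7 (chr2:25352276-25356359), a dipeptidyl peptidase of the lysosome and secretory vesicles, had the largest difference of the first class. Its nuclear ratios were 0.318, 0.584 and 0.595 at 30 min, 0.0852, 0.0766 and 0.0824 at 120 min and 0.0706, 0.0775 and 0.0866 at 240 min. Its membrane ratios were 1.27, 0.961 and 1.07 at 30 min, 1.39, 1.51 and 1.23 at 120 min and 2.40, 2.17 and 2.11 at 240 min. The fractions did not overlap at any of these times, and the nuclear fall had ended by 120 min while the membrane ratio was highest at 240 min. The slopes of Dpp7 were -0.69 ± 0.10 and 0.28 ± 0.10, and their difference was -0.97 ± 0.15 (adjusted p = 2.87e-04).

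Plxna3 (chrX:74329066-74344689), a semaphorin receptor, had membrane ratios of 1.59, 2.01 and 1.71 and nuclear ratios of 0.183, 0.142 and 0.182 at 240 min, with a slope difference of -0.76 ± 0.09. Ddx46, an RNA helicase of the spliceosome, had one of -0.82 ± 0.17. Ddx46 ratios in the membrane fraction varied widely at 60 min, with 0.519, 0.328 and 1.81. In the reverse class Mctp2, an ER protein with C2 domains, had nuclear ratios of 2.31, 2.01 and 2.04 and membrane ratios of 0.362, 0.523 and 0.332 at 240 min, and a slope difference of 0.66 ± 0.10 (adjusted p = 2.50e-04). Mgat5, a Golgi glycosyltransferase, had 0.45 ± 0.11. Its mean nuclear ratios were 0.74 at 30 min, 0.51 at 60 min, 1.11 at 120 min and 0.99 at 240 min. The slopes start at 30 min, so a rise need not end above the level at 0 min. Nim1k also belongs to this class.

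The mRNAs encoded in the mitochondrial genome followed a course of their own in time. Their nuclear ratios are those of the nuclear fraction. For its labelling libraries, which are not used here, the paper describes a slight contamination of that fraction by mitochondria. Whether such carry-over gave the values below was not tested. Of 13 mt-encoded genes 7 were listed in all libraries. None was called at 60 min by limma, nor at an unadjusted p under 0.05, where their median difference was 0.05, and all 7 were lower in the nucleus at 240 min, against 36.3% of all genes, with a median of -1.38. The slope difference was called lower for 4 of the 7, against 6.16% of all genes, with a median of -0.42. For mt-Nd5, a subunit of complex I, the nuclear ratios were 2.58, 1.49 and 1.24 at 120 min and 0.959, 0.712 and 0.667 at 240 min, and the membrane ratios were 2.14, 1.95 and 2.47 and 2.43, 2.53 and 2.41. The fractions overlapped up to 120 min and separated at 240 min, and the slope difference of mt-Nd5 was -0.52 ± 0.10 (adjusted p = 0.00239). For mt-Nd6, of the same complex, it was -0.42 ± 0.10.

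**Figure D4:**
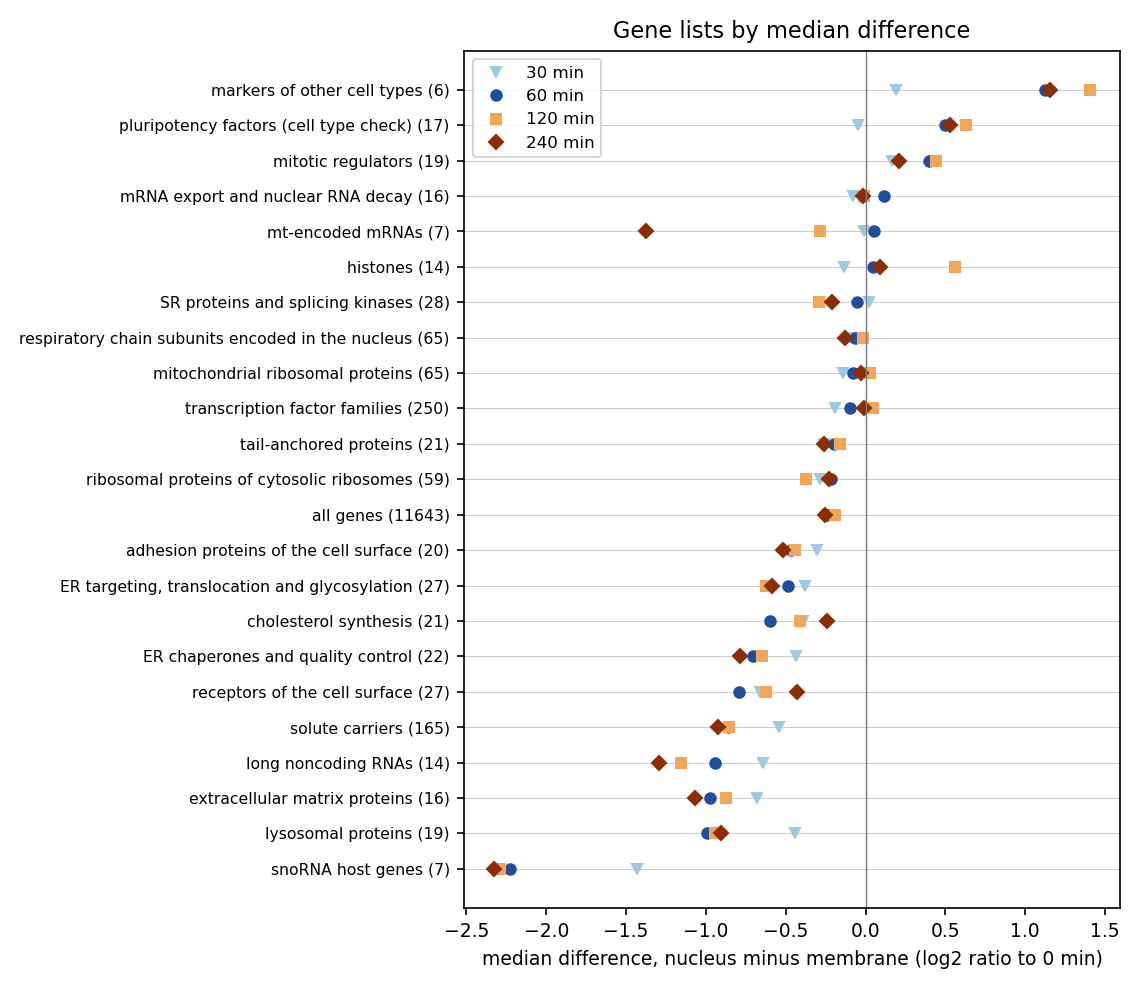
Median difference of the log2 ratio to 0 min, nucleus minus membrane (horizontal axis), at 30, 60, 120 and 240 min for 22 gene lists and all genes, with the number of genes tested in parentheses. The mt-encoded mRNAs are the list whose 240 min point lies far from the others, and the lists of ER, extracellular matrix, lysosomal, adhesion, receptor and solute carrier genes lie left of all genes at each time.

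Gene lists for the secretory pathway had medians below that of all genes from 30 min on, also without the nuclear 30 min library of replicate 1. They are described by counts and medians, to be read beside the 30.3% lower and 14.6% higher of all genes at 60 min and the median of -0.24. For calls at 240 min the shares of all genes were 36.3% and 18.4%, and for slope calls 6.16% lower and 2.19% higher. Where a list had no higher call at 60 min, none of its members was higher at an unadjusted p under 0.05 either, apart from 1 host gene of small nucleolar RNAs and 2 histone genes. Values with centring are to be read beside those of all genes with centring. These were 22.4% lower and 25.5% higher at 60 min, with a median of 0.01. At 240 min they were 25.8%, 33.6% and 0.13, and of 11643 slopes 864 were lower and 1142 higher. Centring moved the median difference by 0.26 at 60 min and by 0.39 at 240 min. Scaling on the mt-encoded mRNAs moved it by 0.03 at 60 min but by 1.18 at 240 min. List medians between -1.18 and 0 at 240 min therefore change sign under scaling on the mt-encoded mRNAs. Of 22 ER chaperones and quality control proteins, 16 were lower at 60 min and none higher, with a median of -0.71, and 2 had a lower slope. Among them Sel1l, the adaptor of the ubiquitin ligase for misfolded ER proteins, had a difference of -2.27 at 60 min, and Hsp90b1, the ER form of Hsp90, -0.93. The differences of Hspa5 and Pdia3 did not pass the test, at -0.55 and -0.17. The members with a called slope difference were Os9, a lectin of ER quality control, with -0.58 ± 0.15, and Ero1lb, an oxidase for disulfide bonds, with -0.50 ± 0.13.

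For Os9 the nuclear ratios were 0.994, 0.826 and 0.871 at 30 min and 0.0567, 0.0761 and 0.0745 at 240 min, and the membrane ratios 1.14, 0.768 and 1.17 and 0.314, 0.363 and 0.406. The fractions overlapped at 30 min and not at 240 min. With centring 15 of the 22 chaperones were lower at 60 min and none higher, with a median of -0.45.

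Of 27 genes for targeting, translocation and glycosylation at the ER, 17 were lower and 2 higher at 60 min, with a median of -0.48. The 2 higher were Srp68 and Srp72, protein subunits of the signal recognition particle, which is a soluble complex. Its subunits Srp9 and Srp14 were lower, at -0.49 and -0.39, and Srp19 and Srp54a did not pass the test, at -0.90 and -0.06. Srp72, chosen after its values were seen, had nuclear ratios of 0.933, 1.01 and 1.12 and membrane ratios of 0.592, 0.600 and 0.643 at 60 min, a difference of 0.74 ± 0.14 (adjusted p = 3.46e-04). The subunits of the oligosaccharyltransferase Rpn1, Rpn2 and Ddost stood at -0.86, -0.86 and -0.80, and Sec61a1, the pore of the translocon, at -0.90. The called slope differences were those of Sec61a2, the second form of that pore, with -0.56 ± 0.14, and Sec11c, a signal peptidase subunit, with -0.26 ± 0.07. With centring 9 of the 27 were lower and 3 higher at 60 min.

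Of 16 extracellular matrix proteins, 11 were lower at 60 min and 12 at 240 min, with medians of -0.97 and -1.07 and no higher call at either time. Their called slope differences numbered 4, all lower, from Agrn, a heparan sulfate proteoglycan of basement membranes, with -0.54 ± 0.14 to Vcan, a large proteoglycan, with -0.25 ± 0.06. For Agrn the nuclear ratios at 240 min were 0.145, 0.188 and 0.106 and the membrane ratios 1.68, 1.80 and 1.45. The laminin chains Lama5 and Lamb2 were the other two. With centring 10 of the 16 were lower at 60 min and none higher, with a median of -0.71.

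Of 19 lysosomal proteins, 16 were lower at 60 min and none higher, with a median of -0.99, and 4 had a lower slope, among them Mcoln1, Tpp1 and Hexa. Neu1, a sialidase chosen after its values were seen, had nuclear ratios of 0.282, 0.248 and 0.329 and membrane ratios of 1.18, 0.979 and 1.17 at 60 min, a difference of -1.96 ± 0.17 (adjusted p = 2.76e-07). Mcoln1, a cation channel of lysosomes, had a slope difference of -0.43 ± 0.11. Hexa, a subunit of β-hexosaminidase, had rising slopes in both fractions. In the nucleus it first dropped, from ratios of 0.538, 0.700 and 0.636 at 30 min to 0.440, 0.394 and 0.508 at 60 min. At 240 min its nuclear ratios were 1.03, 0.751 and 0.718 and its membrane ratios 2.86, 2.68 and 2.54, and its slope difference was -0.23 ± 0.07. Lamp2 was higher in the nucleus at 240 min, by 0.71. With centring 13 of the 19 were lower and 1 higher at 60 min.

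Of 165 solute carriers, 107 were lower and 11 higher at 60 min, with a median of -0.86, and 27 had a lower and 4 a higher slope. Slc4a7, a sodium bicarbonate cotransporter, had the highest slope difference among them, 0.53 ± 0.09 (adjusted p = 0.00100). Its nuclear ratios were 1.79, 1.78 and 1.80 at 240 min and its membrane ratios 0.257, 0.282 and 0.309. At each time, 30 min included, every nuclear library of Slc4a7 lay over every membrane library. With centring 90 of the 165 solute carriers were lower and 14 higher at 60 min, with a median of -0.60. Of 20 adhesion proteins 9 were lower at 60 min and none higher, with a median of -0.47, among them the integrin Itga5 with -1.51 and Epcam with -0.88, and none had a called slope difference, with 3 lower and 1 higher at an unadjusted p under 0.05. With centring 7 of the 20 were lower at 60 min and none higher, with a median of -0.21. Of 21 tail-anchored proteins, which reach membranes after translation, 6 were lower and 3 higher, with a median of -0.20 that became 0.06 with centring, and Fis1, a mitochondrial outer membrane protein, had a slope difference of -0.76 ± 0.21.

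Receptors of the cell surface had a smaller median difference at 240 than at 60 min. Of 27 members 18 were lower at 60 min and 2 higher, with a median of -0.79, and at 240 min 12 were lower and 1 higher, with a median of -0.43. With centring 15 were lower and 3 higher at 60 min, with a median of -0.53. At 240 min these were 11 and 7, with a median of -0.04. Without centring the slope difference was called for 2, both higher. For the EGF receptor gene Egfr, one of these 2, it was 0.36 ± 0.11 (adjusted p = 0.0440). Tfrc, the transferrin receptor gene and an example in the study, had nuclear ratios of 0.388, 0.441 and 0.505 and membrane ratios of 0.994, 0.948 and 1.08 at 60 min. At 240 min they were 0.158, 0.140 and 0.139 and 0.344, 0.339 and 0.312. The fractions did not overlap at either time, the difference of Tfrc was -1.19 ± 0.17 at 60 min and -1.19 ± 0.17 at 240 min, and its slope difference of -0.12 ± 0.08 did not pass (adjusted p = 0.338).

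Nf1, a Ras GTPase-activating protein and also an example in the study, behaved otherwise. Its nuclear ratios were 0.768, 0.807 and 1.06 at 60 min, 2.00, 1.96 and 1.66 at 120 min and 1.26, 1.26 and 1.09 at 240 min. Its membrane ratios were 0.598, 0.779 and 0.776, 0.736, 0.645 and 0.762 and 0.714, 0.757 and 0.797 at the same times. The nuclear ratio was highest at 120 min, and the slope difference of Nf1 was 0.17 ± 0.11 (adjusted p = 0.362).

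Cholesterol synthesis divided by the kind of enzyme. Of 21 members 13 were lower and 4 higher at 60 min, with a median of -0.60. All 13 lower members encode a hydrophobic stretch, among 16 members that do, and of the 5 members with none 3 were higher. Hmgcs1, a soluble synthase of the pathway, had nuclear ratios of 1.13, 1.22 and 1.33 and membrane ratios of 0.513, 0.519 and 0.473, a difference of 1.29 ± 0.13 (adjusted p = 1.03e-06). The fractions of Hmgcs1 did not overlap, and the gene was chosen after its values were seen. At 240 min 8 members were lower and 7 higher, and the median of -0.24 became 0.14 with centring. The difference of Hmgcs1 was then 1.45 ± 0.13.

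A short list of known long noncoding RNAs, many of which act in the nucleus without being translated, also had mostly lower ratios there. Of 14 members 10 were lower at 60 min and none higher, with a median of -0.94, and at 240 min 12 were lower and 2 higher, with a median of -1.29. The slope was lower for 5. Malat1 (chr19:5795690-5802672), a noncoding RNA of nuclear speckles, had nuclear ratios of 0.300, 1.14 and 0.855 at 30 min and 0.344, 0.140 and 0.168 at 60 min, and membrane ratios of 1.40, 1.10 and 0.999 and 1.94, 2.02 and 2.59. At 60 min the groups lay far apart, with a difference of -3.43 ± 0.38 (adjusted p = 2.00e-06), and the slope difference of Malat1 was -0.69 ± 0.20. The slope of Malat1 was -0.76 in nuclear and -0.08 in membrane libraries. In libraries outside this comparison it was 0.07 (cytosol) and 0.01 (whole cells), so the nuclear fall was not matched by one in whole cells. Meg3, from an imprinted locus, had the smallest called slope difference of the list, -0.28 ± 0.08. Its slopes were -0.15 (nucleus), 0.14 (membrane), 0.16 (cytosol) and 0.11 (whole cells). Whether RNA of Malat1 or Meg3 passed between fractions during the preparation was not tested.

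Host genes of small nucleolar RNAs had the lowest median of the lists at 60 min, -2.22 over 7 genes, with 6 lower and none higher. Snhg5, chosen after its values were seen, had nuclear ratios of 0.0220, 0.0452 and 0.0426 and membrane ratios of 0.402, 0.404 and 0.332 as early as 30 min. At 60 min its difference was -3.93 ± 0.47 (adjusted p = 4.02e-06), and at 240 min -2.33 ± 0.47. Snhg14 was the one of the 7 not lower at 60 min, at 0.43. The slope was lower for Snhg11 alone, with -0.50 ± 0.09, which fell in the nucleus and rose in the membrane fraction.

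At 60 min the lists that follow had medians above that of all genes. At other times some did not, as the proteins of cytosolic ribosomes, at -0.37 against -0.19 for all genes at 120 min. Of 19 mitotic regulators 8 were higher and 2 lower at 60 min, with a median of 0.39. Kif11, the motor that separates spindle poles, chosen after its values were seen, had nuclear ratios of 1.21, 1.19 and 1.56 and membrane ratios of 0.537, 0.524 and 0.522, a difference of 1.31 ± 0.18 (adjusted p = 1.63e-05). Birc5, the inhibitor of apoptosis survivin, stood at the other end with -1.42. None of the 19 had a slope difference called by limma, and 5 were higher at an unadjusted p under 0.05. With centring 7 were called higher, against 1142 of all 11643 genes.

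Of 17 pluripotency factors 8 were higher in the nucleus at 60 min and none lower, with a median of 0.50, and at 240 min 8 were higher and 2 lower. Klf2, a Krüppel-like factor chosen after its values were seen, fell steeply in both fractions, with nuclear ratios of 0.0232, 0.0261 and 0.0200 and membrane ratios of 0.0118, 0.0109 and 0.00724 at 240 min. Its difference was 0.66 ± 0.24 at 60 min (adjusted p = 0.0332) and 1.24 ± 0.24 at 240 min. Nanog and Nr5a2 had 0.57 and 0.89 at 60 min, whereas Pou5f1 and Sox2 had 0.15 and 0.01, which did not pass. Slope differences were called for Dppa4, lower with -0.35 ± 0.10, and for Nr0b1 and Tfcp2l1, higher, with 0.23 ± 0.06 for Tfcp2l1. Among the 6 markers of other cell types, the keratin genes Krt8 and Krt18 were higher in the nucleus at 60 min, by 1.42 and 1.82, and the surface protein Thy1 and the collagen Col1a1 were lower, at -1.24 and -2.25.

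Of 250 members of transcription factor families 50 were lower and 27 higher at 60 min, with a median of -0.10 that became 0.16 with centring, and 9 had a lower and 3 a higher slope. The zinc finger genes Zfp661 and Zfp442 were the extremes, with -0.82 ± 0.23 and 0.62 ± 0.14. Of 28 SR proteins and splicing kinases 5 were lower and 5 higher at 60 min, and 11 and 5 at 240 min. Srsf5 had the lowest slope difference of this list, -0.67 ± 0.16 (adjusted p = 0.0117), with nuclear ratios of 0.0628, 0.0707 and 0.0438 and membrane ratios of 0.895, 0.944 and 0.410 at 240 min. Srsf3, of the same protein family, had nuclear ratios of 0.687, 0.644 and 0.729 and membrane ratios of 0.366, 0.431 and 0.531 at 240 min, and its slope difference was 0.20 ± 0.06, in the other direction. Of 16 genes of mRNA export and nuclear RNA decay 4 were lower and 3 higher at 60 min, and the export receptor Nxf1 stood at -2.08.

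Of 59 proteins of cytosolic ribosomes 23 were lower and 7 higher at 60 min, with a median of -0.22 that became 0.04 with centring. Rps28 had a slope difference of -0.46 ± 0.11 and Rps4x one of 0.18 ± 0.05. Reads of these genes can be shared with their many pseudogenes, so single members are uncertain. Of 65 proteins of mitochondrial ribosomes 20 were lower and 11 higher, with a median of -0.08 that became 0.18 with centring, and Mrpl17 and Mrpl35 had higher slopes, with 0.21 ± 0.06 and 0.17 ± 0.05. Of 65 nuclear-encoded subunits of the respiratory chain 15 were lower and 13 higher, with a median of -0.07 that became 0.19 with centring. Cox7c, a subunit of cytochrome c oxidase, had nuclear ratios of 0.312, 0.364 and 0.319 and membrane ratios of 1.21, 0.885 and 1.14 at 30 min and a slope difference of -0.34 ± 0.09, and Cox7b, of the same enzyme, one of -0.13 ± 0.04. Of 14 histone genes 2 were lower at 60 min and Hist1h2bc had a slope difference of -0.37 ± 0.11. Replication-dependent histone mRNAs lack a poly(A) tail, and the RNA was selected for one.

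Hydrophobic stretches were then read from the coding sequence of the protein-coding genes tested, independently of the measured values, except 42 with no usable coding sequence. Of 6073 genes with no hydrophobic stretch, 25.6% were lower in the nucleus at 60 min and 18.9% higher, with a median difference of -0.10. Of 453 genes with stretches starting within the first 30 residues only, as in the sequences printed above for Izumo4, Mmp23 and B3galt6, 55.4% were lower and 2.87% higher, with a median of -0.68. Of 2432 genes with other stretches 43.9% were lower and 9.91% higher, and of 167 genes with a first stretch in the last 50 residues 41.3% and 8.98%. With the number of stretches the share of lower genes went from 39.4% for 1 stretch to 47.8% for 2, 52.3% for 3 to 5 and 59.6% for 6 or more. At 240 min the medians were -0.12 with no stretch, -0.72 with stretches at the start only, -0.50 with other stretches and -0.55 with a stretch in the tail. The prediction is crude and misses some known membrane and secreted proteins.

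Gene length went with the difference as well. In the shortest 20% of protein-coding genes, up to 8.20 kb, 41.5% were lower and 8.40% higher at 60 min, with a median of -0.44. In the longest 20%, above 68.1 kb, 14.6% were lower and 24.4% higher, with a median of 0.08. Across 9167 genes, which are not independent replicates, Spearman's rho of gene length was 0.26 with the difference at 60 min and 0.09 with the slope difference. The genes share libraries and their scaling, so that these values describe the libraries. Within each of 5 equal bins of length the genes with a stretch had a lower median than those without. In the shortest bin these were -0.77 and -0.33, and in the longest -0.18 and 0.23.

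**Figure D5:**
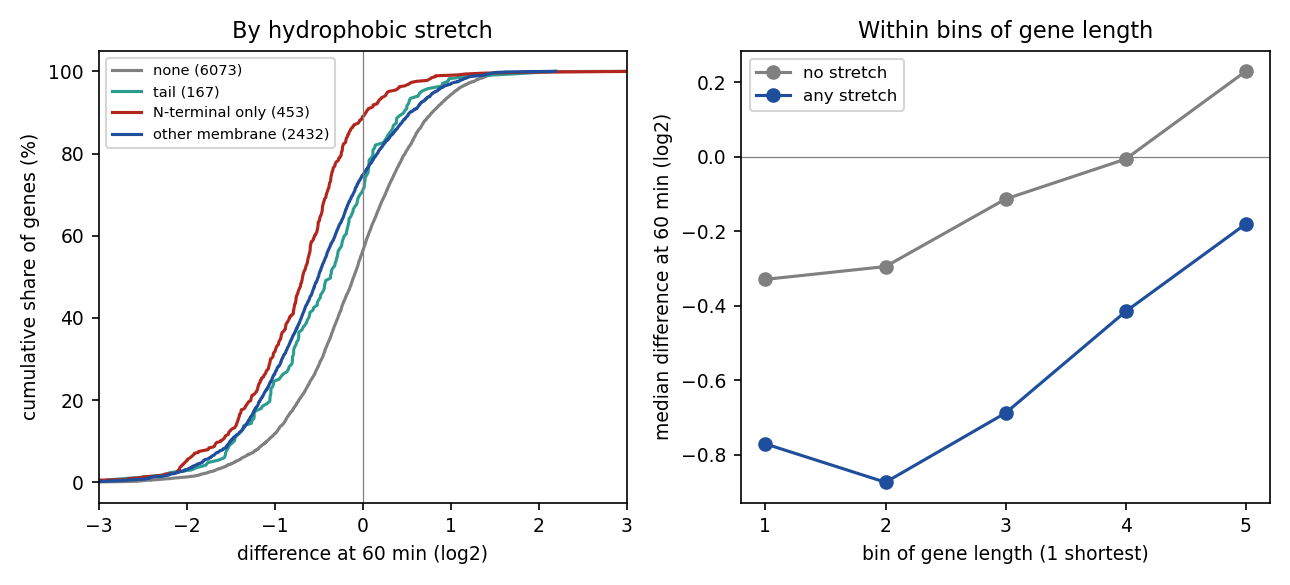
Left, cumulative share of protein-coding genes in percent (vertical axis) against the log2 difference at 60 min, nucleus minus membrane (horizontal axis, cut at -3 and 3), by class of hydrophobic stretch. Right, median difference at 60 min in 5 equal bins of gene length (1 shortest), with and without a stretch. Genes with a stretch lie lower in every bin, and both lines rise from the second to the longest bin.

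Among other RNA classes, 359 genes annotated as lincRNA had 30.1% lower and 8.64% higher at 60 min, with a median of -0.36, and 736 antisense genes 28.5% and 8.70%, with a median of -0.35. Both shares of lower genes are near the 30.3% of all genes, unlike the short list of known long noncoding RNAs. By contrast 23 of 29 small nucleolar RNA genes were lower in the nucleus at 60 min and 1 was higher, with a median of -2.28. These lie in introns of host genes, so their reads can come from the host's transcripts. Of 610 processed pseudogenes 36 were lower and 116 higher, with a median of 0.23, and their reads can be shared with the parent genes. Reads of the antisense genes may be shared with genes on the other strand, as for Tmem51os1.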

How the data were processed

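As stated in the study and the submitters' processing notes, reads were mapped to mm10 with STAR 2.7.6 and counted with RSEM 1.3.3. The authors then scaled the libraries on long-lived transcripts and expressed each series relative to its sample at 0 min. What they deposited are linear ratios, 1 per gene and library, although the file headings name read counts. Genes at 0 are not listed. The depth is unknown, so no counting interval is given and no count test was run.

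Groups and replicate numbers came from the sample titles. Genes listed in all 24 libraries were tested on log2 of the ratio with no pseudocount. limma 3.58.1 in R 4.3.3 fitted the slope on time per fraction and the interaction of fraction and time, and, in a second fit over 8 groups, the difference at each time (moderated by eBayes with trend). Tests were two-sided, with Benjamini-Hochberg adjustment over all genes tested and a threshold of 0.05. Errors of slopes and differences are SE. Both fits were run on simulated data with independent noise for each gene and library. These data held no shift of whole libraries and no shared 0 min error, so they do not bear on the scaling. Of 23862 identifiers, 23786 matched a symbol in the GENCODE annotation for GRCm38, a release that may differ from the study's. Hydrophobic stretches were translated from the longest coding sequence per gene.

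The comparison, the 22 lists and the rule for named genes were chosen with earlier results of these data known. The rule took the 8 lowest and 8 highest slope differences among genes called in every replicate series by sign, with centring and with a harvest block, the 4 largest differences of each opposite class, and in each list the called members with the lowest and highest slope difference, skipping predicted genes. Tfrc and Nf1 are examples in the study. Another example, and some genes that the rule took, are not reported here. Alternatives covered the pseudocount, the listing filter, 3 library scalings, 3 replicate blocks, the trend, each replicate, the nuclear 30 min library of replicate 1, the times used, 180 min as the last time and a level fixed at 0 min. The alternatives that combine centring with another choice were added after seeing the data.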

Additional observations from a re-analysis of the deposited data

Results flagged for a closer look

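The following results were selected for a closer look because the effect of time differed between the fractions by a test of the difference itself, the interaction of fraction and time in limma. The slope was lower in the nucleus for 717 genes and higher for 255. It fell in the nucleus and rose in the membrane fraction for 40 genes, with Dpp7 in the lead, and did the reverse for 13, with Nim1k in the lead. Groups of 3 libraries are too small for a check of single outlying values. Medians of the 3 nuclear 30 min libraries were -0.73, -0.08 and -0.28 (log2), and the part of the lowest one in single slope differences is given by the counts without it.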

How the results depend on the processing

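Counts are given as lower and higher slope in the nucleus (717 and 255 as reported), opposite directions (40 and 13), and lower and higher at 60 min (3523 and 1697) and 240 min (4227 and 2142). Those computed for a setting and not printed stayed within 1.5 times. The settings that change the times or fix the level at 0 min were run for the slopes alone, and the harvest block was not run for opposite directions. A pseudocount of 0.1 gave slope counts of 310 and 105. Centring gave 1142 higher slopes, 121 and 56 opposite, and 2971 and 3911 higher at 60 and 240 min. Scaling to the same total gave 635, 125 and 24, and 2650 higher at 60 min. Scaling on mt-encoded mRNAs gave 38 and 4136, 0 and 140 opposite, 2109 and 909 at 60 min, 747 and 6454 at 240 min, and a median slope difference of 0.325. With 30, 60 and 120 min only there were 468 and 486, and 10 and 20 opposite. With 180 min as last time 436 slopes were higher. With the level at 0 min fixed at 1 there were 4473 and 2392, and 227 and 332 opposite. Centring with the harvest block gave 1168 higher slopes and 2894 and 3860 higher at 60 and 240 min. Centring without the nuclear 30 min library of replicate 1 gave 1376, 127 and 63, 3185 and 4117. The cause of these changes was not tested. Leaving out replicates gave 70 to 582 lower and 16 to 41 higher slopes, 5 to 26 and 3 to 6 opposite, 2235 to 2804 lower and 892 to 1549 higher at 60 min. Without the nuclear 30 min library of replicate 1 there were 924 and 212 slopes, 44 and 10 opposite, and 3933 and 1906 at 60 min.

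Same-numbered libraries shared little deviation (r between -0.04 and 0.10 over 12 pairs, none over 0.1). In 7 of the 12 pairs the same-numbered membrane library had the highest r of the 3. The replicate block gave 618 and 180 slopes, 512 and 129 when fitted within each fraction, and 727 and 218 by harvest.

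Of 57 named genes, the slope difference kept its direction but was no longer called for 22 without replicate 1, 37 without replicate 2 and 41 without replicate 3. The same held for 28 with 30, 60 and 120 min only, 26 with the pseudocount, 18 on mt-encoded scaling and 0 to 10 in the other settings. The 57 include Tfrc, Nf1 and the genes chosen after their values were seen. Their slope differences were not called as reported, so they had no call to lose. Some single genes changed sign. On mt-encoded scaling the slope difference was 0.0647 for Sec11c, 0.078 for Vcan, 0.10 for Hexa, 0.0452 for Meg3 and 0.20 for Cox7b, and the difference at 240 min was 0.20 for Vcan, 0.69 for Cox7b and 0.14 for Hist1h2bc. With a starting level fixed at 1 the slope difference was -1.0 for Snhg5. Ratios give no depth, and the error of the 0 min levels is not carried, which limits single genes.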
